A study of Mus musculus with 72 samples.

Results

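Collagens are the trimeric proteins that form most of the fibrous and sheet-like matrix around cells, and each gene encodes 1 chain of a trimer. The collagen chains described here are the genes whose symbol in the array's annotation reads Col, a number, a and a number, and whose signal reached a detection p under 0.05 on at least 3 of the 72 arrays. Of 37 genes with such a symbol on the platform, 32 met this rule, out of 12265 genes tested in all. They comprised 11 chains of fibrillar collagens (Col1a1, Col1a2, Col2a1, Col3a1, Col5a1, Col5a2, Col5a3, Col11a1, Col11a2, Col24a1 and Col27a1), 6 chains of the basement membrane collagen, type IV (Col4a1 to Col4a6), and 15 chains of other collagens (Col6a1, Col6a2, Col7a1, Col8a2, Col9a1, Col9a2, Col14a1, Col15a1, Col16a1, Col17a1, Col18a1, Col23a1, Col25a1, Col26a1 and Col28a1). Col6a6, Col9a3, Col10a1, Col13a1 and Col19a1 did not pass.

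Fibrillar chains assemble in the cell into procollagen, which is hydroxylated and folded in the endoplasmic reticulum, trimmed outside the cell and crosslinked into cables that bear tension. Type IV collagen instead forms the network of the basement membrane, the thin sheet that surrounds each adipocyte and lines vessels and mesothelium. Type VI collagen makes beaded filaments around adipocytes, types XV and XVIII sit at the border between basement membrane and fibrils, and type VII anchors epithelial basement membranes to the tissue beneath them. In adipose tissue these chains are made largely by fibroblasts and progenitor cells, with type IV and type VI chains also made by adipocytes and vessel cells.

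The arrays measured RNA of interscapular brown adipose tissue (BAT) and perigonadal white adipose tissue (WAT) of C57BL/6J mice. DAKO mice lacked Pnpla2, which encodes adipose triglyceride lipase (ATGL), and Lipe, which encodes hormone-sensitive lipase (HSL), in the cells where a Cre transgene under the Fabp4 promoter was active. HSLAKO mice carried the floxed Lipe alleles with the same Cre, ATGLAKO mice carried the floxed Pnpla2 alleles with the same Cre, and control mice carried the Fabp4-Cre transgene alone, so every group carried Cre. At 3 months there were 5 DAKO, 4 HSLAKO, 5 ATGLAKO and 5 control BAT arrays, at 7 and at 12 months 4 BAT arrays per genotype, and at 14 months, the stage the study calls tumor, 5 DAKO BAT arrays. WAT was taken at 3 months only, with 4 DAKO, 4 HSLAKO, 5 ATGLAKO and 3 control arrays. Fabp4-Cre is active in adipocytes and can be active in some other cells, and each array held the RNA of a whole piece of tissue.

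The chains Col4a1 and Col4a2, which join in 1 trimer, lie head to head, and their promoter windows are shown because they overlap. Both windows hold 250 bases before and 50 bases after a gene's start in RefSeq (GRCm38.p6), with Col4a1 on the minus strand of chr8:11312777-11313076 and Col4a2 on the plus strand of chr8:11312555-11312854. Capitals mark the 78 bases that both windows hold, read from opposite strands. The windows follow the start of a RefSeq transcript, which for Col4a1 lies 63 bases and for Col27a1 1403 bases inside the outer end of the gene.
Col4a1: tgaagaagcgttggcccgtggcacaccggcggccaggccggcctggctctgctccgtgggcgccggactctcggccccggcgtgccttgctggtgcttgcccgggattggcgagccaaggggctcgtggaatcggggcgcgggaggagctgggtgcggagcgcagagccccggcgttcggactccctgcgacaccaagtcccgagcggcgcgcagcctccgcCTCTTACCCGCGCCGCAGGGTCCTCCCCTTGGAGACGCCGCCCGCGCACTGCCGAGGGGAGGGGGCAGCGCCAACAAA
Col4a2: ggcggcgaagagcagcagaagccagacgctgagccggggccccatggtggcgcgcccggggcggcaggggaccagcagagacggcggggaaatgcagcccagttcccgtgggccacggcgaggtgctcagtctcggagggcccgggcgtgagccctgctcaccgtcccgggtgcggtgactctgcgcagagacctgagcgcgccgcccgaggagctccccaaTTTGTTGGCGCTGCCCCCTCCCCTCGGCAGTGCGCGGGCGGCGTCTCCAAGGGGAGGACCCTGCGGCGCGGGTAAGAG
The windows of Col16a1 (chr4:130047590-130047889, plus strand) and Col27a1 (chr4:63215162-63215461, plus strand) are shown because these chains ran in opposite directions along Ucp1 signal below. Capitals mark the matches to CCAAT or GGGCGG on either strand.
Col16a1: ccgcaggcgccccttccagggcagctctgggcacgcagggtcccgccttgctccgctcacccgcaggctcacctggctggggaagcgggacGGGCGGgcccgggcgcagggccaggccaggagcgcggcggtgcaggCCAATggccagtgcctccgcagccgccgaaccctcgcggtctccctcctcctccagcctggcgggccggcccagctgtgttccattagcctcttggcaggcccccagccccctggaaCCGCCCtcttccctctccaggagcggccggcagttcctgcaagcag
Col27a1: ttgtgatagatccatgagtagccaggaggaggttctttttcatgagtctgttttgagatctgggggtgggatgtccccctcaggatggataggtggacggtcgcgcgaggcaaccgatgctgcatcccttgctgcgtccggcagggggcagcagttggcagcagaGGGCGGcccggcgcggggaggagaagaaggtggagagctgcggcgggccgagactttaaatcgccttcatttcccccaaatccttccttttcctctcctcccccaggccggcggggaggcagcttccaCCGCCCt
RefSeq windows were matched for 26 of the 32 chains (29 windows). CCAAT was present on either strand in 12 of these 29 windows and in 37.4% of 32851 mouse promoter windows of the same length, and GGGCGG in 19 of 29 windows and in 35.7% of all windows. TATAAA was present in 3 of 29 windows (13.6% of all windows) and TGANTCA, where N is any base, in 1, that of Col6a1 (7.81% of all windows). The stretch shared by Col4a1 and Col4a2 held 1 GGGCGG and 0 CCAAT matches, the Col16a1 window held 1 CCAAT and 2 GGGCGG matches, and the Col27a1 window held 2 GGGCGG and 0 CCAAT matches. A match is a description of the letters only.

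Markers of the labelled genotype and tissue did not follow the labels on every array, so each group is named below as the arrays labelled with it, and no array was moved. Lipe signal (log2) was 5.56 to 8.95 on DAKO, 5.58 to 7.35 on HSLAKO, 8.32 to 10.37 on ATGLAKO and 9.31 to 9.95 on control BAT arrays at 3 months, but at 7 months it was 4.49 to 9.07 on DAKO and 6.56 to 7.03 on control arrays. Pnpla2 signal at 3 months was 10.02 to 14.04 on DAKO, 10.58 to 14.10 on HSLAKO, 11.18 to 13.31 on ATGLAKO and 12.91 to 13.31 on control BAT arrays. It thus went against the label on DAKO replicates 1 to 3 (13.85 to 14.04, above every control array) and on ATGLAKO replicates 1 and 2 (13.20 and 13.31, at the control level). HSLAKO mice keep Pnpla2, yet HSLAKO replicates 2 and 3 read 10.92 and 10.58, below every ATGLAKO array of that age, and the Lipe signal of DAKO replicate 5 was 8.95. Among older ATGLAKO BAT arrays, Pnpla2 was 12.99 to 13.29 on replicates 1, 3 and 4 at 7 months and 13.18 and 13.12 on replicates 1 and 2 at 12 months. Whether arrays were exchanged, and whether the probes lie in the deleted exons, was not tested. Ucp1, the uncoupling protein that defines brown adipocytes, was 11.82 to 13.65 on DAKO and 13.61 to 13.82 on control BAT arrays at 3 months. At 7 and 12 months it was 4.34 to 8.25 and 4.33 to 4.69 on control BAT arrays. On WAT arrays it was 6.12 to 13.40 in DAKO, 11.35 to 13.49 in HSLAKO, 4.24 to 13.47 in ATGLAKO and 4.99 to 13.60 in control mice, so many WAT arrays held the defining marker of BAT. The 8 control BAT arrays of 7 and 12 months and 8 others carried mesothelial RNA, with a mean over 9 mesothelial markers of at least 6.12, whereas the remaining 56 arrays were at or below 5.04. The 8 others were ATGLAKO BAT replicates 1 and 2 at 7 months and 4 at 12 months, control WAT replicate 1 and ATGLAKO WAT replicates 1 to 4. Cdkn2a, a cell cycle inhibitor gene, was at 9.30 or above on 5 arrays (DAKO BAT replicates 3 and 4 at 7 months and 1 at 12 months, HSLAKO BAT replicates 1 and 2 at 12 months) and at or below 5.72 on all others. Ucp1 separated the 56 BAT arrays into 33 at or above 11.38 and 23 at or below 8.25.

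The collagens that moved most across the 72 arrays were chains of several classes. Of the 32 chains, 12 were detected on all 72 arrays, 18 on 36 or more, and 14 on fewer than 36, of which Col26a1, on 5 arrays, lay closest to the 3.6 arrays that negative control probes would give. Col7a1, the anchoring fibril chain, spanned 6.90 log2 units between its lowest and highest array, a range that 1.33% of all genes reached. Col16a1 spanned 6.04 units (2.61% of genes), Col1a1 5.81 units (3.07%), Col15a1 5.20 units (4.88%) and Col18a1 4.85 units (6.55%). Col4a1, in contrast, spanned 2.97 units (25.4% of genes) and Col4a2 2.69 units (31% of genes), although both were detected on every array. At the other end, Col9a1, a chain of a cartilage collagen, was detected on 42 arrays and spanned 0.95 units, which 90.9% of genes matched or exceeded.

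**Figure D1:**
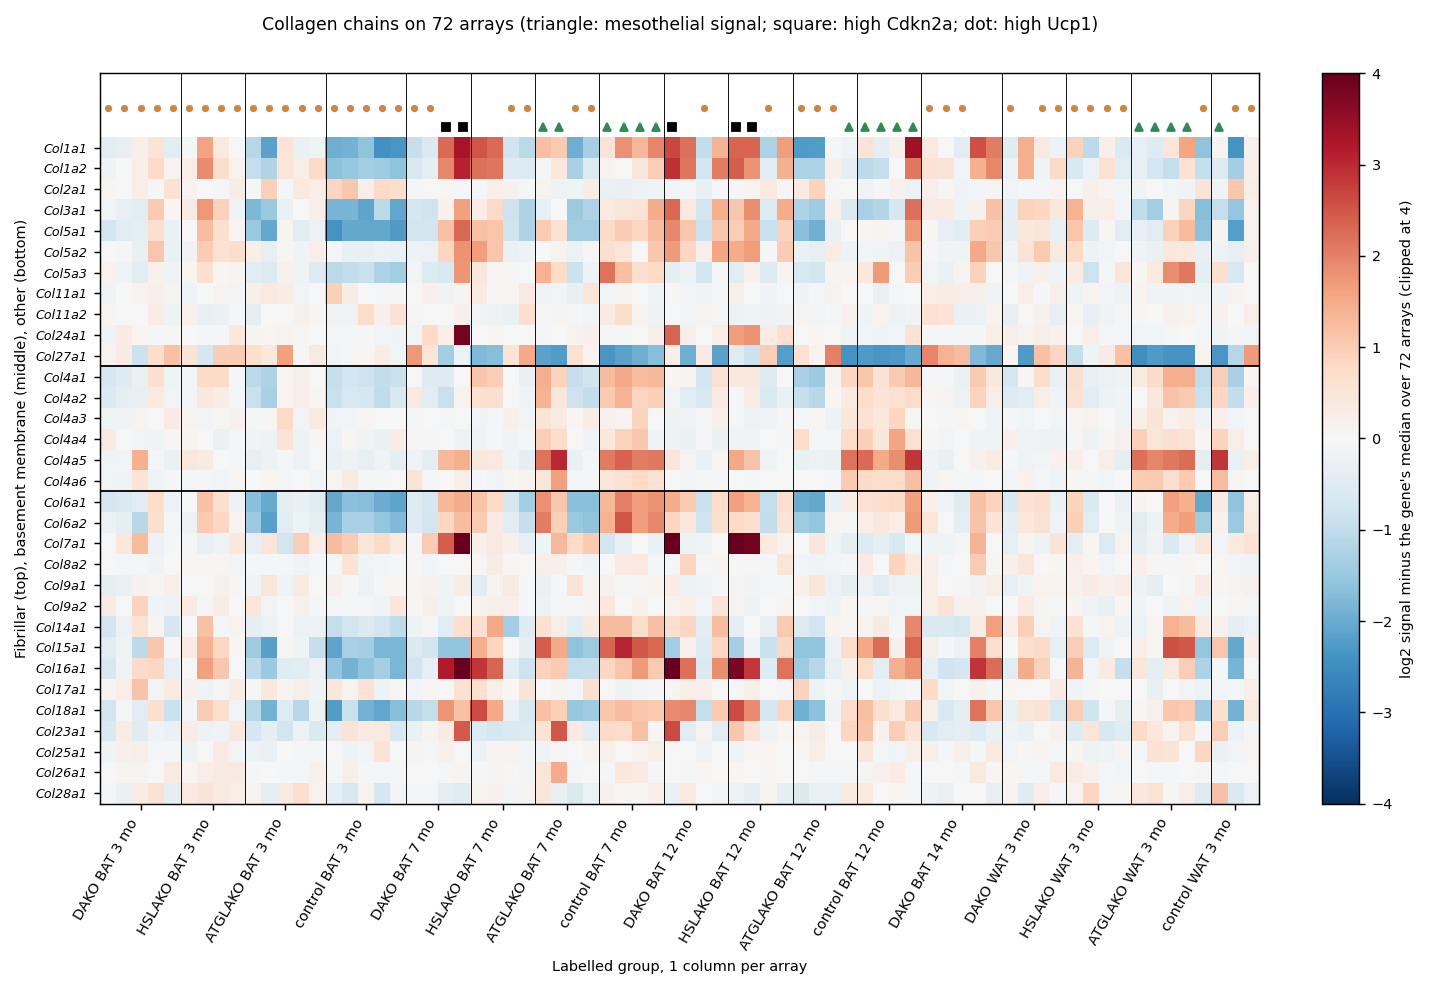
Signal of the 32 collagen chains (rows, by class) on each of the 72 arrays (columns, by labelled group), as log2 signal minus the median of that gene over all arrays, with the colour scale ending at 4 units either way. Triangles mark the 16 arrays with mesothelial signal, squares the 5 arrays with high Cdkn2a and dots the arrays with high Ucp1, and Col7a1 stands out on the 5 arrays with squares.

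At 3 months, several fibrillar chains had higher means on DAKO than on control BAT arrays without passing the call used throughout for comparisons of groups (adjusted p under 0.01 together with more than 1.5 log2 units of difference). Col5a1, a chain of the collagen that nucleates fibrils, read 9.54, 9.85, 9.92, 10.91 and 10.00 on DAKO arrays, against 7.86, 8.21, 8.23, 8.23 and 8.01 on control arrays. Every DAKO value lay above every control value, with a log2 fold change of 1.94 ± 0.58 (SE, limma adjusted p = 0.036). Col3a1, the chain of type III collagen, which forms thin reticular fibres, read 7.79, 7.57, 7.43, 8.92 and 7.96 on DAKO arrays, against 6.04, 6.02, 5.79, 6.81 and 5.81 on control arrays (log2 fold change 1.84 ± 0.55 SE, adjusted p = 0.0374). Col1a1, the main chain of type I collagen, read 8.44, 8.56, 9.09, 9.42 and 8.47 on DAKO arrays and 6.92, 6.98, 7.28, 6.48 and 6.55 on control arrays. These groups did not overlap either, but the fit across all groups gave an adjusted p of 0.134 for its log2 fold change of 1.95 ± 0.80 (SE). Col2a1, the cartilage fibril chain, had the lowest log2 fold change of the fibrillar chains (-0.57, limma adjusted p = 0.0327). It read 4.64, 4.55, 4.82, 4.48 and 5.12 on DAKO arrays and 5.42, 5.64, 4.78, 5.34 and 5.26 on control arrays. It was detected on 2 DAKO and 4 control arrays.

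In the same DAKO comparison, basement membrane chains differed less and other chains spread widely. Col4a1 read 10.97, 11.14, 11.38, 12.29 and 11.48 on DAKO arrays and 10.72, 10.88, 10.82, 10.65 and 10.74 on control arrays. All 5 DAKO values were above the control values, by 0.69 log2 units on average (adjusted p = 0.336). Col4a6, a type IV chain encoded beside Col4a5 on the X chromosome, was detected on 1 of 5 DAKO and 0 of 5 control arrays, with a signal of 4.21 to 4.92 on DAKO and 4.28 to 4.75 on control arrays. Col16a1, a collagen that associates with fibrils, read 7.16, 7.63, 8.58, 8.64 and 7.48 on DAKO arrays and 6.23, 5.91, 6.18, 6.48 and 5.97 on control arrays, a log2 fold change of 1.75 (adjusted p = 0.17). Col6a1, a type VI chain, differed by 1.66 (adjusted p = 0.0841), Col15a1 by 1.58 (adjusted p = 0.127) and Col18a1, whose C-terminal fragment is endostatin, by 1.45 (adjusted p = 0.161). Col18a1 had 3 tested probes, and on its lowest-mean probe this difference was absent. Col7a1 was the lowest of the other chains at -0.52 (adjusted p = 0.731), with 5.21 to 6.70 on DAKO arrays overlapping 5.83 to 6.71 on control arrays. In all, 0 of 32 collagen chains were called between DAKO and control BAT arrays at 3 months, where 0.685% of all genes were called. At an adjusted p under 0.05 with no fold minimum 3 chains were counted (5.76% of all genes), and at an unadjusted p under 0.05 limma counted 11 of 32 chains (23.0% of all genes). The groups did not overlap for 11 of 32 chains and for 17.1% of all genes. With only the DAKO and control BAT arrays of 3 months in the fit 6 chains were called higher, namely Col1a1, Col1a2, Col3a1, Col5a1, Col6a1 and Col16a1, where 2.94% of all genes were called.

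HSLAKO BAT arrays at 3 months were set against the same 5 control arrays, and here 2 fibrillar chains rose. Col5a1 read 10.27, 11.49, 10.92 and 10.32 on HSLAKO arrays, above all 5 control arrays, whose mean was 8.11. The log2 fold change was 2.64 ± 0.61 (SE, limma adjusted p = 0.00503). Col3a1 read 8.21, 9.61, 8.82 and 7.71 on HSLAKO arrays, again above every control array (mean 6.09), with a log2 fold change of 2.49 ± 0.59 (SE, adjusted p = 0.00549). These were 2 of 32 collagen chains called, both higher, against 1.1% of all genes called higher and 1.54% called in either direction. At an adjusted p under 0.05 with no fold minimum 10 chains were higher and 1 lower, against 5.46% and 5.51% of all genes. Those below the call included Col1a1 (2.52, adjusted p = 0.0465), its partner chain Col1a2 (2.27, adjusted p = 0.0188), Col6a1 (2.31, adjusted p = 0.0152), Col6a2 (1.99, adjusted p = 0.0184), Col15a1 (2.35, adjusted p = 0.0197) and Col18a1 (2.12, adjusted p = 0.0346). Col1a1 read 8.80, 10.49, 9.27 and 8.88 on HSLAKO arrays, and Col6a1 read 11.07, 12.24, 11.75 and 10.87 on HSLAKO arrays against 9.03, 9.40, 9.37, 9.09 and 8.97 on control arrays. Col4a1 read 11.53, 12.43, 12.41 and 11.61 on HSLAKO arrays, all above the control arrays, and Col2a1 was the chain on the lower side (-0.64, adjusted p = 0.0149, detected on 1 of 4 HSLAKO and 4 of 5 control arrays).

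Both calls depended on single arrays and on the values used. Without HSLAKO replicate 2 the adjusted p was 0.0368 for Col5a1 and 0.0468 for Col3a1, without HSLAKO replicate 3 it was 0.0224 and 0.0253, and leaving out control replicate 1 or 5 ended both calls as well, whereas control replicate 2 or 3 ended that of Col3a1. HSLAKO replicates 2 and 3 are the arrays of their group with low Pnpla2 (10.92 and 10.58, against 14.10 and 13.36 on replicates 1 and 4), and the part of this in the calls was not tested. The lower-mean of the 2 tested probes of Col3a1 was not called either (2.05, adjusted p = 0.0164). On the authors' normalized values neither chain was called, with log2 fold changes of 2.15 for Col5a1 (adjusted p = 0.0108) and 1.23 for Col3a1 (adjusted p = 0.0249), and with only these groups in the fit 9 chains were called (4.9% of all genes).

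ATGLAKO BAT arrays at 3 months, against the same control arrays, gave 0 called collagen chains (0.0815% of all genes called) and no adjusted p below 0.179, with 6 of 32 chains at an unadjusted p under 0.05 (15.7% of all genes). Their spread was wide. Col1a1 read 7.76, 6.75, 9.44, 8.63 and 8.71 on ATGLAKO arrays, so that replicate 2 lay within the control range and the other 4 above it. Col6a1 read 9.41, 9.06, 10.70, 10.79 and 10.58 and Col4a1 read 10.56, 10.42, 11.69, 11.89 and 11.62 on ATGLAKO arrays, with replicates 1 and 2 again the lowest. These 2 arrays carried Pnpla2, the gene deleted in ATGLAKO mice, at the level of control arrays (13.20 and 13.31), whereas replicates 3 to 5 had 11.18 to 11.95, and the part of this in the spread was not tested.

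Over the 32 chains, the median log2 fold change at 3 months was 0.30 in DAKO, 0.43 in HSLAKO and 0.26 in ATGLAKO BAT, beside -0.04, -0.03 and -0.02 over all genes. By class it was 0.33, 0.78 and 0.60 for fibrillar chains, 0.26, 0.26 and 0.18 for basement membrane chains, and 0.15, 0.24 and 0.12 for other chains, in the same order of genotypes. Of the type IV chains, Col4a3 to Col4a6 were not detected on any control BAT array of 3 months, so these class medians hold chains at background. Among the 18 chains detected on 36 or more arrays the medians were 1.17 in DAKO, 1.68 in HSLAKO and 0.69 in ATGLAKO BAT. By class they were 1.78, 2.38 and 1.23 for 6 fibrillar chains, 0.64, 1.07 and 0.44 for Col4a1 and Col4a2, and 0.96, 1.56 and 0.61 for 10 other chains. The mean signal of the 11 fibrillar chains was 6.40 ± 0.26 on DAKO, 6.68 ± 0.23 on HSLAKO, 6.22 ± 0.36 on ATGLAKO and 5.65 ± 0.06 on control arrays (SD, n = 5, 4, 5 and 5). The 3 comparisons share their control arrays.

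**Figure D2:**
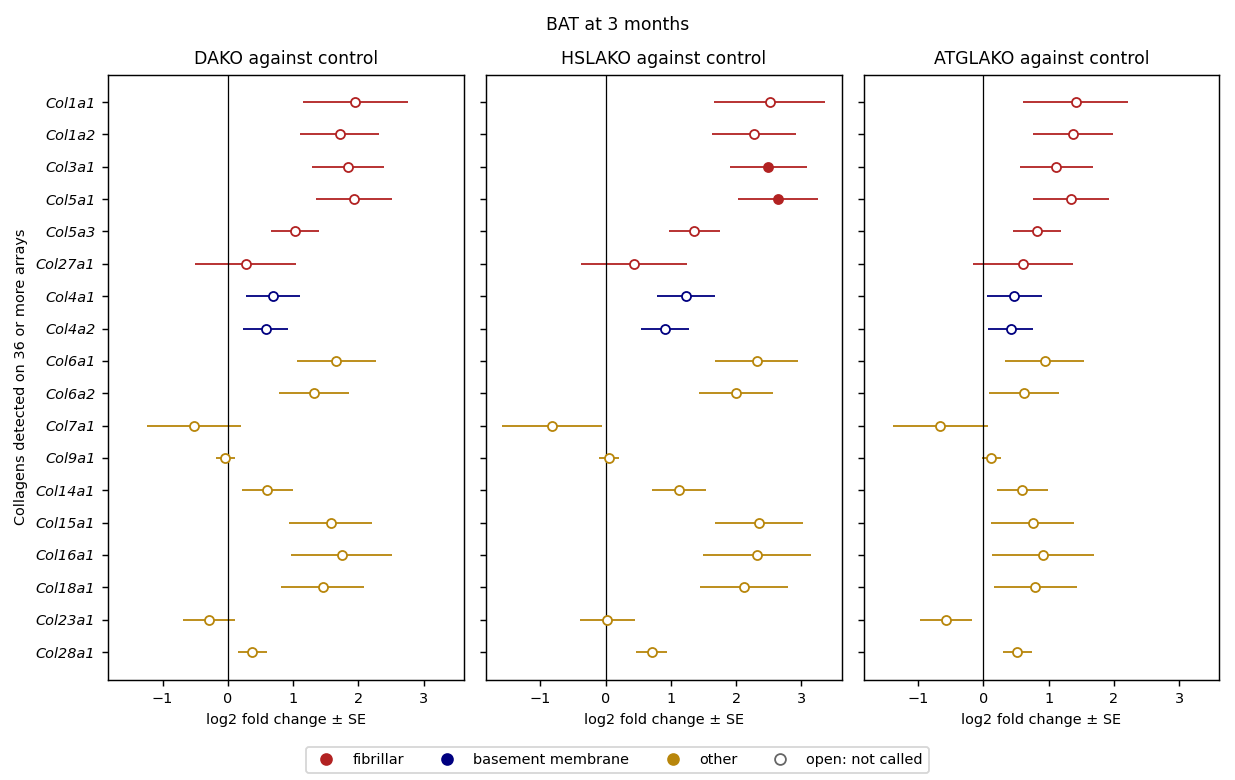
Log2 fold change against control BAT at 3 months of the 18 collagen chains detected on 36 or more arrays, for DAKO, HSLAKO and ATGLAKO BAT, with bars of 1 SE from the limma fit. Filled points passed the call, which only Col5a1 (2.64) and Col3a1 (2.49) in HSLAKO did.

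Genes that act on collagens were read from lists fixed by function. Pcolce, which encodes an enhancer of procollagen trimming, rose in DAKO BAT at 3 months to a mean of 10.08, against 7.33 on control arrays (2.75 ± 0.51 SE, limma adjusted p = 0.000794), and in HSLAKO BAT (2.89, adjusted p = 0.000707). Lum, the fibril-binding proteoglycan lumican, rose in DAKO BAT (9.91, against 7.32 on control arrays, 2.59 ± 0.57 SE, adjusted p = 0.00486) and in HSLAKO BAT (2.49, adjusted p = 0.00654), and the basement membrane linker Nid1 rose in HSLAKO BAT (10.00, against 7.96 on control arrays, adjusted p = 0.00533). These were the only called genes of the 6 lists at 3 months, where all 10 genes of the fibril partner list had positive fold changes in both genotypes (medians 1.32 in DAKO and 1.51 in HSLAKO). At older ages called genes of these lists were lower. In DAKO BAT at 12 months they were Lamb2 (-1.79, limma adjusted p = 0.000107) and Ddr1 (-2.89, adjusted p = 1.03e-05). In HSLAKO BAT they were Pcolce2 (-1.89), Ogn (-3.00), Hspg2 (-1.91) and Ddr1 (-2.05) at 7 months. At 12 months they were Prelp (-2.31), Lamb2 (-1.57) and Ddr1 (-2.18). The control arrays of both ages carried mesothelial signal, whose part was not tested. At 3 months the medians in DAKO and HSLAKO were 0.30 and 0.63 for 14 genes of hydroxylation and folding, and 0.79 and 0.97 for 8 of propeptide removal and crosslinking. They were 0.31 and 0.76 for 9 basement membrane partners, 0.11 and 0.25 for 7 collagen receptors, and 0.69 and 0.90 for 7 of the TGF-beta axis.

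Markers of other cells differed in the same comparisons. The mean signal of 7 fibroblast and progenitor markers was 8.06 to 8.73 on DAKO, 8.38 to 9.62 on HSLAKO and 6.77 to 6.85 on control arrays, with all 7 genes positive in both genotypes. The mean of 6 macrophage markers was 9.74 to 11.73 on DAKO, 9.65 to 12.13 on HSLAKO and 6.85 to 7.46 on control arrays, with 4 of 6 genes (Adgre1, Lyz2, Gpnmb and Lgals3) called higher in both. The mean of 6 skeletal muscle markers was 10.26 to 13.21 on DAKO, 10.40 to 13.18 on HSLAKO and 9.28 to 10.55 on control arrays, and that of 6 brown adipocyte markers was 9.65 to 11.12 on DAKO, 8.88 to 10.37 on HSLAKO and 11.31 to 11.54 on control arrays. Mesothelial markers did not move with these groups (median log2 fold change 0.00 in DAKO and 0.03 in HSLAKO). More cells that make collagen and more collagen RNA per cell cannot be told apart in such bulk samples, and the part of these cells in the collagen differences was not tested.

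At 7 months 1 collagen chain, Col15a1, was called between DAKO and control BAT arrays, and it was lower in DAKO. Col15a1 read 7.99, 7.85, 7.01 and 7.02 on DAKO arrays, against 10.92, 11.62, 11.07 and 10.88 on control arrays. The groups did not overlap and Col15a1 fell by 3.65 ± 0.71 on the log2 scale (SE, limma adjusted p = 0.00158). This was 1 of 32 collagen chains, against 0.66% of all genes called lower and 0.815% in either direction. All 4 control arrays carried mesothelial signal (mean of 9 markers 6.17 to 6.97, against 4.38 to 5.04 on DAKO arrays), and its part in the difference was not tested. Against the 5 control BAT arrays of 3 months, a setting added after the data had been seen, Col15a1 stood at 0.57 (adjusted p = 0.581), and without DAKO replicate 3 or 4 or control replicate 2 its adjusted p was between 0.0104 and 0.0124.

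Other chains differed in DAKO BAT at 7 months without passing the call. Col4a1 read 11.64, 11.14, 11.12 and 11.63 on DAKO arrays and 12.91, 13.17, 12.87 and 12.94 on control arrays (log2 fold change -1.59, adjusted p = 0.0289), and Col4a2 differed by -1.26 (adjusted p = 0.0362). All 6 basement membrane chains had lower means on DAKO arrays, of which Col4a3 and Col4a4 were not detected there. Among the widely detected chains the median was -0.43 for 6 fibrillar and -0.65 for 10 other chains, and it was 0.02 for all genes. Col7a1 read 5.36, 6.43, 7.84 and 11.36 on DAKO arrays and 4.70, 5.11, 5.43 and 5.16 on control arrays (2.65, adjusted p = 0.0357), with its 2 highest values on the arrays with high Cdkn2a. Col24a1, a fibrillar chain known from developing bone, read 4.27, 5.17, 4.64 and 8.18 on DAKO arrays, was detected on 2 of these 4 and on 0 of 4 control arrays, and was at least 1.89-fold higher in DAKO (adjusted p = 0.0421), a bound that rests on replicate 4 and is 1.03-fold without it. Fibrillar chains were split within the labelled DAKO group. DAKO replicates 1 and 2 had Lipe at 9.07 and 8.69 and Ucp1 at 13.85 and 13.53, whereas replicates 3 and 4 had Lipe at 4.49 and 4.61 and Ucp1 at 4.81 and 4.29, so Lipe on replicates 1 and 2 goes against the genotype label, and the part of this in the split and in the Col15a1 call was not tested. Col1a1 read 7.95, 8.30, 11.14 and 12.20 on DAKO arrays and 9.41, 10.72, 10.21 and 10.85 on control arrays, and Col16a1 read 7.05, 7.48, 10.99 and 11.96 on DAKO arrays and 8.63, 8.91, 9.51 and 8.85 on control arrays. The groups overlapped for 23 of the 32 chains, and 9 did not overlap, as did 13.3% of all genes.

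HSLAKO BAT at 7 months gave 0 called collagen chains against the same control arrays in limma (0.921% of all genes called) and 12 at an unadjusted p under 0.05 (23.2% of all genes), with Col4a5, a type IV chain found in selected basement membranes, at -2.08 (adjusted p = 0.0123) and Col6a2 at -1.88 (adjusted p = 0.0436). Col4a5 read 5.06, 5.00, 4.49 and 4.27 on HSLAKO arrays and 6.71, 7.01, 6.69 and 6.75 on control arrays, with no overlap. ATGLAKO BAT at 7 months gave 0 called chains (0% of all genes called) and 9 at an unadjusted p under 0.05 (11.4% of all genes), with no adjusted p below 0.411. Its Col4a5 signal was 6.81, 7.67, 4.38 and 4.57 on ATGLAKO arrays, high on the replicates 1 and 2 that carried mesothelial signal.

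At 12 months, all 6 basement membrane chains again had lower means on DAKO than on control BAT arrays, and 1 passed the call. Col4a5 read 5.13, 4.75, 4.36 and 4.72 on DAKO arrays, against 6.92, 6.16, 6.49 and 7.52 on control arrays. It fell by 2.03 ± 0.53 on the log2 scale (SE, limma adjusted p = 0.006), the 1 of 32 collagen chains called where 3.26% of all genes were called lower and 3.82% in either direction. Col4a4, a chain best known from kidney basement membrane, read 4.34, 4.29, 4.59 and 4.30 on DAKO arrays and 5.52, 4.99, 6.14 and 5.17 on control arrays. It was detected on 0 DAKO and 4 control arrays and was at least 1.66-fold lower in DAKO (adjusted p = 0.000526). Col4a6 was at least 1.41-fold lower in DAKO (adjusted p = 0.00374) and Col4a3, detected on 3 of the 4 control arrays, at least 1.16-fold lower (adjusted p = 0.0173). Col4a1 and Col4a2, the widely detected chains of the class, stood at -1.02 and -0.85. The medians of the widely detected fibrillar and other chains were 0.72 and -0.06, and 5 of 32 chains did not overlap between groups, as did 15.5% of all genes.

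The Col4a5 call at 12 months was lost when control replicate 1, 3 or 4 was left out, and likewise DAKO replicate 2, 3 or 4 (adjusted p up to 0.029), and on the authors' normalized values, where its log2 fold change was -0.51. On control BAT arrays of 3 months Col4a5 was not detected, so a fitted difference from them is no measure of a fold. The 4 control arrays at 12 months carried mesothelial signal of 6.12 to 7.64, against 4.36 to 4.47 on DAKO arrays, and its part in the difference was not tested. HSLAKO BAT at 12 months, against the same control arrays, gave 0 called chains in limma (4.45% of all genes called) and 10 at an unadjusted p under 0.05 (31.8% of all genes), with Col4a4 at least 1.66-fold lower (adjusted p = 0.00095), Col4a6 at least 1.41-fold lower (adjusted p = 0.00525), Col4a3 at least 1.16-fold lower (adjusted p = 0.00582) and Col7a1 at 2.58 (adjusted p = 0.0197). Col7a1 read 9.80, 9.28, 5.79 and 5.58 on HSLAKO arrays and 4.92, 5.07, 4.82 and 5.31 on control arrays. ATGLAKO BAT gave 0 called chains (0.383% of all genes called) and 16 at an unadjusted p under 0.05 (21.7% of all genes), and its Col4a5 signal of 4.35, 4.40, 4.37 and 6.81 again was high on the array with mesothelial signal (log2 fold change -1.79, adjusted p = 0.0437).

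Set against the 5 control BAT arrays of 3 months, which carried no mesothelial signal (4.31 to 4.47), the older DAKO arrays had 5 chains called higher at 7 months and 7 at 12 months, an alternative added after the data had been seen and one in which age and genotype cannot be told apart. At 7 months these were Col1a1 (3.05, limma adjusted p = 0.00977), Col1a2 (2.52), Col5a1 (2.65, adjusted p = 0.00264), Col6a1 (2.30, adjusted p = 0.00952) and Col16a1 (3.21, adjusted p = 0.00565), where 3.85% of all genes were called. At 12 months Col3a1 (2.63, adjusted p = 0.0014) and Col18a1 (2.73, adjusted p = 0.00264) were called besides these 5 (9.34% of all genes called). Col2a1, not detected on the older DAKO arrays, had a lower signal there than on control arrays (adjusted p = 0.0035 at 7 and 0.000735 at 12 months). The same 7 chains were called in HSLAKO BAT at 12 months (10.3% of all genes), and only Col18a1 at 7 months (2.56, limma adjusted p = 0.00982, 2.04% of all genes). In ATGLAKO BAT 0 were called at either age (0.359% of all genes at 7 months). The share for ATGLAKO at 12 months is not given, so that count does not tell collagens from other genes. All 5 arrays with high Cdkn2a are among the older DAKO and HSLAKO arrays. At 7 months Col1a1 and Col16a1 were split within the DAKO group as given above, highest on its arrays with high Cdkn2a. Lipe on its other arrays went against the genotype label, and the part of this split in the calls was not tested.

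Whether a genotype's effect differed between ages was tested as a difference of differences in the same fit. The DAKO effect at 7 months was lower than that at 3 months for 1 of 32 chains, Col15a1, by 5.23 log2 units (limma adjusted p = 0.000894, 1.44% of all genes called), and 0 chains were called at 12 months (0.946% of all genes, 12 chains at an unadjusted p under 0.05, against 22.2% of all genes). The HSLAKO effect was lower at 7 than at 3 months for 6 chains, namely Col3a1, Col5a1, Col5a3, Col6a1, Col6a2 and Col15a1 (3.56% of all genes called), and lower at 12 than at 3 months for 2, Col5a3 and Col15a1 (1.66% of all genes). For ATGLAKO 0 chains were called at 7 and at 12 months (0.00815% and 0.0897% of all genes), with 14 and 17 at an unadjusted p under 0.05, against 14.7% and 24.3% of all genes. Both sides of each difference rest on control arrays that differ in Ucp1 and mesothelial signal between the ages, and that part was not tested.

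**Figure D3:**
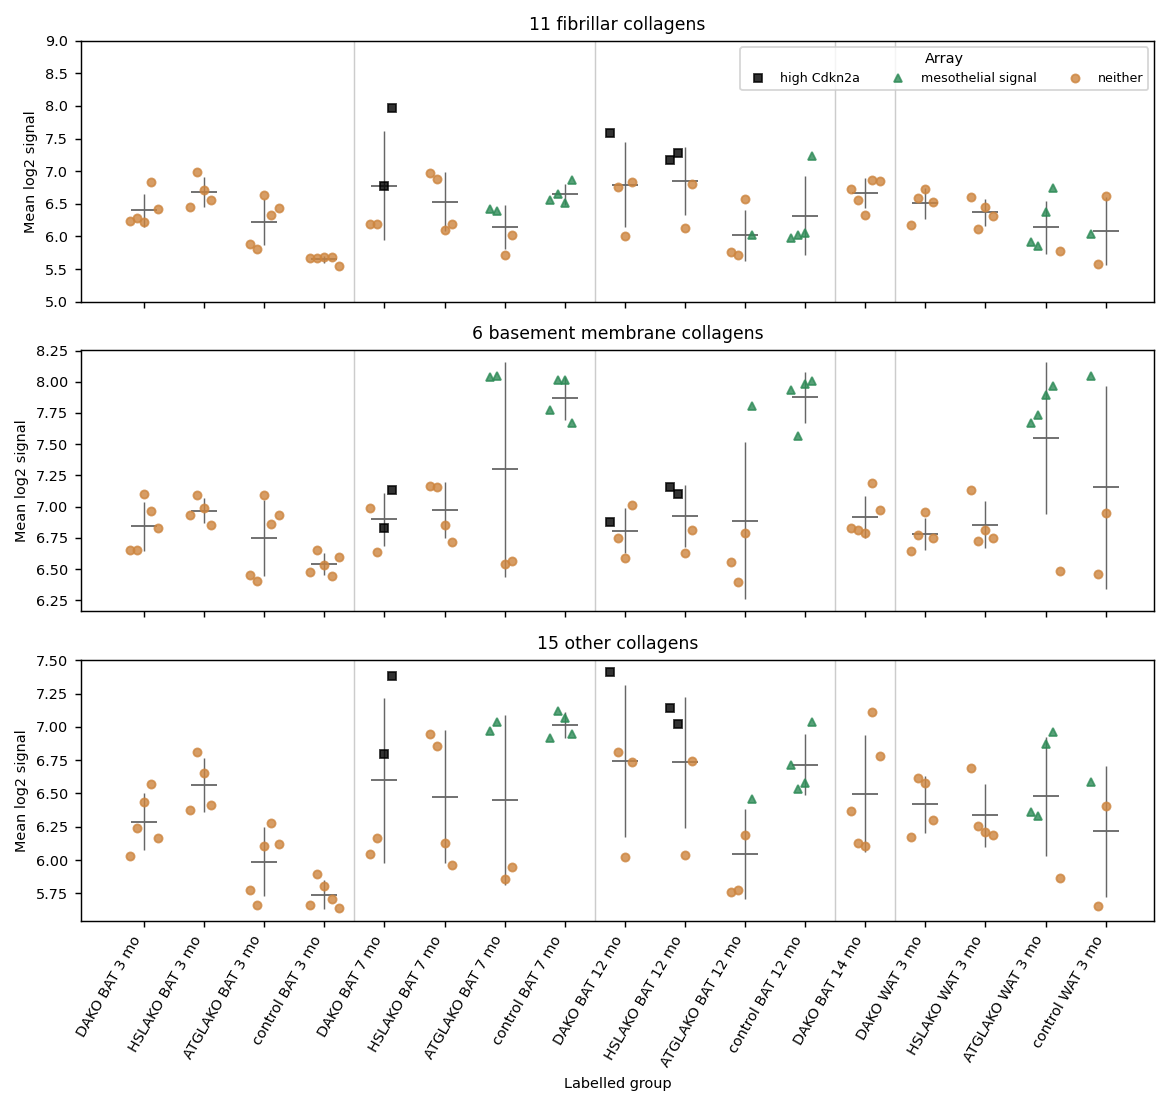
Mean log2 signal of the 11 fibrillar, 6 basement membrane and 15 other collagen chains on each array, by labelled group, with bars for the group mean ± SD. The basement membrane panel separates the 16 arrays with mesothelial signal (7.57 to 8.05) from the other 56 (6.40 to 7.19), while fibrillar chains lie lowest on control BAT at 3 months (5.65 ± 0.06).

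The arrays labelled DAKO BAT at 14 months, the stage named tumor, had 0 collagen chains past the call against DAKO BAT at 12 or at 3 months. Against 12 months 0 of 32 chains were called (0% of all genes called), the lowest adjusted p was 0.834, 2 chains had an unadjusted p under 0.05 in limma (5.06% of all genes) and the median log2 fold change was 0.01. Against 3 months 0 chains were called (0% of all genes), 1 had an unadjusted p under 0.05 (3.11% of all genes) and the median was 0.11. The 5 arrays fell apart by chain. Col16a1 read 7.48, 7.00, 7.11, 10.69 and 10.04 on the 14-month arrays, and Col27a1, a fibrillar chain known from cartilage, read 8.67, 8.10, 7.96, 4.94 and 4.69, so that replicates 4 and 5 were the highest for Col16a1 and the lowest for Col27a1. Ucp1 ranged from 6.21 to 13.56 across these 5 arrays. Lipe, deleted in DAKO mice, was 9.18 to 9.44 on replicates 1 to 3, close to the 9.31 to 9.95 of control BAT at 3 months, and 5.06 and 5.19 on replicates 4 and 5, and Cdkn2a was at most 5.72 on all 5. The markers of replicates 1 to 3 thus go against the genotype label, so these comparisons describe the arrays labelled with the stage, and the part of the markers in the split was not tested.

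The interaction of both knockouts, which asks whether the DAKO effect differs from the sum of the single knockouts, was not called for any chain at 3, 7 or 12 months (0.00815%, 0% and 0% of all genes called). Unadjusted p-values under 0.05 were counted for 6, 4 and 7 of 32 chains in limma, against 6.61%, 16.3% and 12.2% of all genes, and the median interaction was -0.50, 0.57 and 0.50.

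In WAT at 3 months, 0 of 32 collagen chains were called in DAKO, HSLAKO or ATGLAKO against control WAT, where 0% of all genes were called in each comparison. The number of chains at an unadjusted p under 0.05 in limma was 1, 0 and 1, against 5.77%, 2.84% and 3.38% of all genes, and the medians were 0.11, 0.10 and 0.16. Col1a1 read 8.40, 10.34, 9.24 and 8.67 on DAKO WAT, 9.80, 7.83, 9.10 and 8.32 on HSLAKO WAT, 8.57, 8.38, 9.38, 10.48 and 7.27 on ATGLAKO WAT, and 9.01, 6.53 and 9.07 on control WAT arrays. The groups overlapped, and the lowest and highest control values lay further apart than any group means.

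WAT was then compared with BAT of the same genotype at 3 months. The fit took the arrays as unpaired, although by their names 8 HSLAKO and DAKO mice gave both depots. With the mouse as a random block the counts of called chains were the same. No chain was called in DAKO, HSLAKO, ATGLAKO or control mice, where 0%, 0%, 0.261% and 0.0163% of all genes were called, and limma counted 0, 0, 11 and 5 chains at an unadjusted p under 0.05, against 0.97%, 1.34%, 22.9% and 13.4% of all genes. In ATGLAKO mice Col4a5 read 6.84, 6.61, 6.74, 6.87 and 4.27 on WAT arrays and was at least 2.75-fold higher than in BAT (adjusted p = 0.0263), where it was not detected. Col4a6 was at least 1.25-fold higher in WAT (adjusted p = 0.0233), and Col27a1 stood at -2.48 (adjusted p = 0.048), with 4.27, 4.45, 4.35, 4.35 and 6.85 on WAT arrays. The array that differed, replicate 5, was the only ATGLAKO WAT array without mesothelial signal. The WAT effect of a genotype was not called to differ from its BAT effect for any chain (lowest adjusted p 0.999 in DAKO, 0.446 in HSLAKO and 0.442 in ATGLAKO).

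Collagens were next followed along the signal of Lipe, Ucp1 and Cdkn2a among BAT arrays of the same labelled group, with 1 slope per chain from 56 arrays in limma. Lower Ucp1 went with higher collagen signal for most of the widely detected chains. Col16a1 fell along Ucp1 by 0.38 ± 0.031 (SE) log2 units per log2 unit of Ucp1 (adjusted p = 2.47e-14), Col1a1 by 0.37 ± 0.035 (adjusted p = 2.08e-12), Col18a1 by 0.30 ± 0.025 (adjusted p = 3.14e-14) and Col6a1 by 0.26 ± 0.024 (adjusted p = 1.06e-12). Of the basement membrane chains, Col4a1 had a slope of -0.13 ± 0.023 (adjusted p = 4.71e-06) and Col4a5 of -0.17 ± 0.024 (adjusted p = 3.81e-08). Of the 32 chains Col27a1 alone rose, by 0.30 ± 0.038 (adjusted p = 6.19e-09). In all, 17 chains fell and 1 rose along Ucp1 at an adjusted p under 0.01, against 26% and 19.9% of all genes, and by class 6 of 11 fibrillar, 3 of 6 basement membrane and 8 of 15 other chains fell.

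The arrays on either side of the Ucp1 gap show the size of this pattern. Col1a1 was 6.48 to 10.49 (median 8.30) on the 33 BAT arrays with high Ucp1 and 8.52 to 12.29 (median 10.85) on the 23 with low Ucp1. Col18a1 was 7.73 to 10.98 (median 9.24) on arrays with high Ucp1 and 10.34 to 12.58 (median 11.12) on those with low Ucp1, a narrow overlap. Col27a1 ran the other way, with 5.86 to 8.74 (median 7.22) on arrays with high Ucp1 and 4.33 to 6.95 (median 4.71) on those with low Ucp1. Each side was also fitted alone, with fewer arrays behind each slope (21 and 13 residual degrees of freedom, against 42 in the fit of all 56). Among the 33 arrays with high Ucp1, 1 chain fell along Ucp1 (2.34% of all genes fell) and 0 rose, with a median slope of -0.12 over the 32 chains, against -0.09 in the fit of all 56. Among the 23 with low Ucp1, 0 chains fell and 0 rose, as did 0% of all genes, and the median slope was -0.04. Without the arrays with mesothelial signal 15 chains fell along Ucp1 (25.2% of all genes fell), and without the DAKO arrays of 14 months 16 fell (23.4% of all genes).

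**Figure D4:**
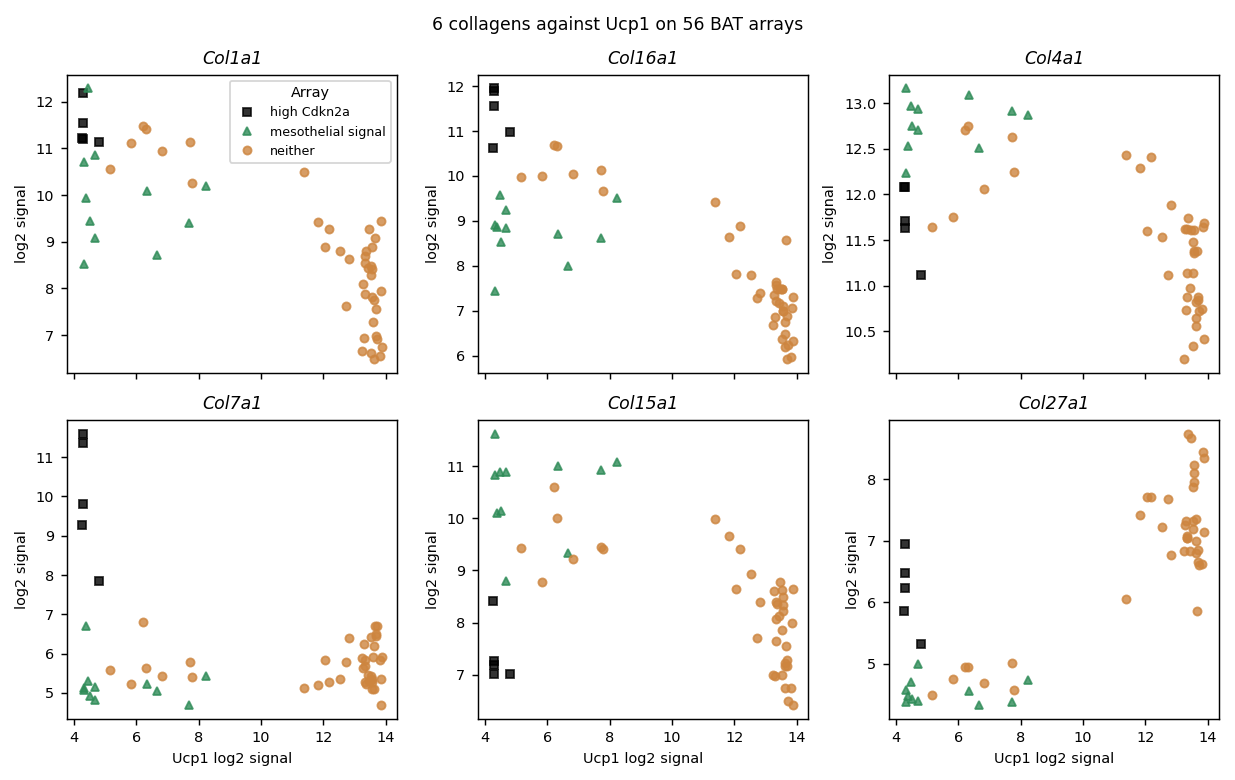
Log2 signal of Col1a1, Col16a1, Col4a1, Col7a1, Col15a1 and Col27a1 against log2 Ucp1 signal on the 56 BAT arrays, 1 point per array. No BAT array lies between 8.25 and 11.38 of Ucp1, and of these 6 chains Col27a1 is higher on the side with high Ucp1 (median 7.22, against 4.71 on the side with low Ucp1).

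Along Lipe, the gene deleted in DAKO and HSLAKO mice, 15 chains fell and 1 rose, against 24.3% and 19.4% of all genes. The steepest were Col16a1 (-0.83 ± 0.073 SE, limma adjusted p = 8.77e-13), Col1a1 (-0.78 ± 0.086, adjusted p = 2.42e-10) and Col18a1 (-0.61 ± 0.066), and the chain that rose was again Col27a1 (0.59 ± 0.094, adjusted p = 7.91e-07). Col7a1 had a slope of -0.38 that was not called (adjusted p = 0.0117). Of these, 8 chains also fell along Lipe among the 33 arrays with high Ucp1 alone (5.07% of all genes fell), and 0 among the 23 with low Ucp1, where 0% of all genes fell. Lipe and Ucp1 moved together within groups (r = 0.85 over 56 arrays, a description), so their slopes are not separate results.

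Along Cdkn2a, 12 chains rose and 0 fell, against 17.8% and 12.1% of all genes. Col7a1 rose by 0.78 ± 0.079 (SE) log2 units per log2 unit of Cdkn2a (limma adjusted p = 7.25e-11), Col16a1 by 0.69 ± 0.100 (adjusted p = 3.24e-07), Col1a1 by 0.54 ± 0.121 (adjusted p = 0.000313) and Col24a1 by 0.28 ± 0.050 (adjusted p = 1.24e-05). Col4a1 (0.07, adjusted p = 0.431) and Col15a1 (-0.14, adjusted p = 0.295) were not called. Ucp1 and Cdkn2a ran against each other within groups (r = -0.62). With Ucp1 in the fit 4 of 32 chains rose and 1 fell along Cdkn2a, against 11.3% and 7.67% of all genes. On the 51 BAT arrays with low Cdkn2a alone 4 rose and 1 fell, against 11.3% and 9.18% of all genes. The share of chains that rose was thus near that of all genes in both settings. Only Col16a1 rose in both, and Col27a1 rose with Ucp1 in the fit but fell on the 51 arrays. Among the 33 arrays with high Ucp1, where Cdkn2a spanned 4.18 to 4.57, 0 chains and 0% of all genes rose.

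**Figure D5:**
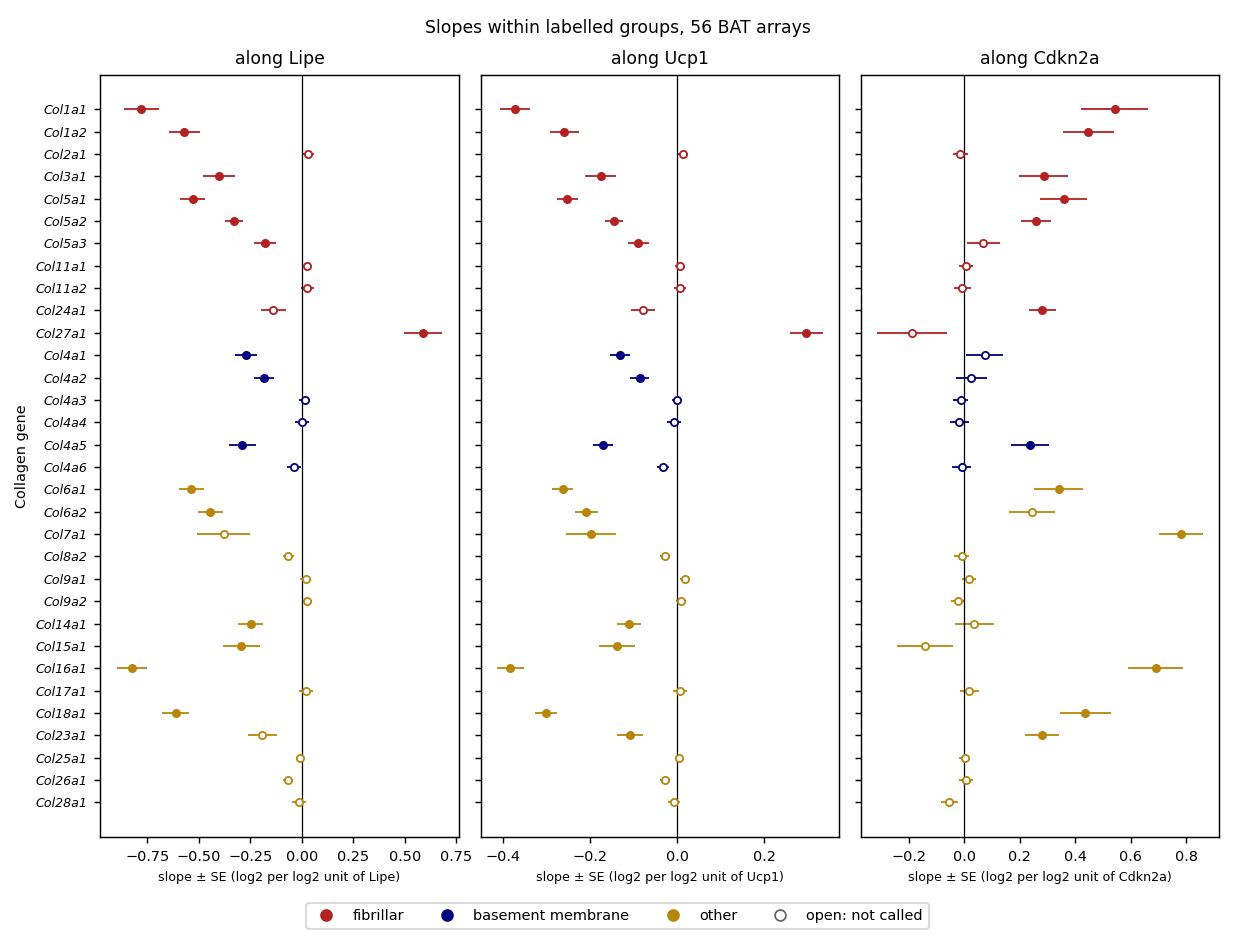
Slope of each of the 32 collagen chains along Lipe, Ucp1 and Cdkn2a signal over 56 BAT arrays with the labelled group in the fit, in log2 units of the chain per log2 unit of the marker, with bars of 1 SE. Along Ucp1 the slopes run between -0.38 (Col16a1) and 0.30 (Col27a1), and along Cdkn2a Col7a1 has the steepest slope (0.78).

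As a description with no test, the mean signal of each class was also set against the markers on either side of the Ucp1 gap, where the points share their labelled groups, age and array quality. With Lipe, Pearson's r was -0.63 (33 arrays with high Ucp1) and -0.67 (23 with low Ucp1) for fibrillar chains, -0.60 and 0.72 for basement membrane chains, and -0.82 and -0.54 for other chains. The basement membrane value changed sign on the side with low Ucp1, where the 11 BAT arrays with mesothelial signal lie, and within labelled groups it was -0.06 there. For the widely detected chains Col4a1 and Col4a2 alone, r on that side was 0.49, and 0.34 within labelled groups. On that side the values within labelled groups were -0.19 for fibrillar and -0.23 for other chains for the same arrays. With high Ucp1 they were -0.53, -0.46 and -0.75 for the 3 classes. With Ucp1, r was -0.61 and -0.19 for fibrillar, -0.44 and -0.02 for basement membrane, and -0.75 and -0.23 for other chains. Without the 2 arrays farthest from the median of Ucp1 the values on the side with high Ucp1 were -0.44, -0.28 and -0.63.

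The 5 arrays with high Cdkn2a and the 16 with mesothelial signal, which are sets of arrays and not groups of the study, differed from the remaining arrays in several chains. Col7a1 was 7.84 to 11.60 (median 9.80) on the 5 arrays with high Cdkn2a, above all 51 other BAT arrays (4.70 to 6.79, median 5.43). Col16a1 was 10.63 to 11.96 on these 5 and 5.91 to 10.69 on the other 51, and Col24a1 was 4.64 to 8.18 on the 5 and 4.21 to 5.17 on the 51. Col15a1 was 7.01 to 8.41 (median 7.19) on the 5 and 6.42 to 11.62 (median 8.62) on the 51, which include 11 with mesothelial signal. Its mean on control BAT arrays of 3 months was 6.90, so a low signal was not particular to the 5. On 7 arrays with low Ucp1 and neither mesothelial nor high Cdkn2a signal, Col1a1 was 10.26 to 11.47 and Col16a1 9.67 to 10.69, whereas Col7a1 was 5.24 to 6.79.

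Among basement membrane chains, the arrays with mesothelial signal stood apart. Col4a5 was 6.16 to 7.67 (median 6.81) on these 16 arrays and 4.27 to 6.20 (median 4.55) on the other 56. Col4a6 was 4.83 to 6.02 on the 16 and 4.20 to 4.92 on the 56, Col4a1 was 12.04 to 13.17 and 10.19 to 12.75, and Col15a1 was 8.62 to 11.62 and 6.42 to 10.60 on the same sets. Col27a1 was at or below 5.00 on all 16 arrays with mesothelial signal.

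Chains that share a trimer were followed together on each side of the Ucp1 gap (12 tests, permutation test with 100000 resamples, two-sided). Col1a1 and Col1a2, the chains of type I collagen, had a Pearson r of 0.965 (Spearman 0.948) on the 33 arrays with high Ucp1 and 0.865 (Spearman 0.851) on the 23 with low Ucp1. Col4a1 and Col4a2 had r of 0.955 (Spearman 0.976) and 0.944 (Spearman 0.949), and Col6a1 and Col6a2 0.962 (Spearman 0.944) and 0.892 (Spearman 0.885). Each of these had a permutation p of 1e-05 for both measures, the smallest that the resampling can give (after Benjamini-Hochberg adjustment over the 12, 1.2e-05 for Pearson's r and 1.5e-05 for Spearman's rho), and without the 2 arrays farthest from the median r stayed at 0.826 or above. Arrays were permuted without regard to their labelled groups, so these p-values do not set the groups aside. Within labelled groups, as a description, r was 0.832 to 0.952 for these 3 pairs on both sides. Col5a1 and Col5a2 had r of 0.671 (Spearman 0.630) and 0.812 (Spearman 0.826).

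The minor type IV chains were detected on few arrays with high Ucp1 (Col4a3, Col4a4 and Col4a5 on 3 of 33 each, Col4a6 on 2), so little can be read from their correlation there, and the difference between the sides was not tested. Col4a5 and Col4a6, whose windows follow starts 1343 bases apart on the X chromosome, had r of 0.877 (Spearman 0.850) on the 23 arrays with low Ucp1, which include arrays with and without mesothelial signal. On the 33 with high Ucp1 r was 0.410 (permutation p = 0.052) and Spearman's rho -0.260 (p = 0.143), and r was -0.170 without the 2 farthest arrays. Col4a3 and Col4a4 had r of 0.883 (Spearman 0.779) with low Ucp1, against 0.239 (permutation p = 0.164) with high Ucp1. Within labelled groups, as a description, r with low Ucp1 was 0.534 for Col4a5 with Col4a6 and 0.703 for Col4a3 with Col4a4. With high Ucp1 these values were 0.635 and 0.341. For comparison, over the 153 pairs of the 18 widely detected chains the median r was 0.614 (from -0.608 to 0.976) with high Ucp1 and 0.226 (from -0.768 to 0.958) with low Ucp1.

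The lists of genes that act on collagens were also followed along the markers. Of 14 genes of hydroxylation and folding, 11 fell along Lipe and 11 along Ucp1, and 10 rose along Cdkn2a, where 24.3% of all genes fell along Lipe, 26% fell along Ucp1 and 17.8% rose along Cdkn2a. 1 gene of that list rose along Lipe and 1 along Ucp1. Of 7 genes of the TGF-beta axis 6 fell along Lipe and 6 along Ucp1, of 8 of propeptide removal and crosslinking 4 fell along Lipe and 5 along Ucp1, and of 9 basement membrane partners 3 fell along each. Of 10 fibril partners 6 fell along Lipe and 7 along Ucp1, and of 7 collagen receptors 4 fell along each, while 1 of each list rose along each marker. Marker genes of other cells moved in the same fits. Of 6 macrophage markers 5 fell and of 7 fibroblast and progenitor markers 4 fell along both Lipe and Ucp1, and of 6 skeletal muscle markers 5 rose along Lipe, 6 rose along Ucp1 (median slope 0.54) and 6 fell along Cdkn2a (median slope -1.06). Of 5 adipocyte markers 3 rose along Lipe and along Ucp1 and 4 fell along Cdkn2a (median slope -0.78). Of 9 mesothelial markers 1 fell along Lipe and 4 along Ucp1. Of 5 endothelial markers 3 rose along Lipe and 1 along Ucp1, where 19.4% and 19.9% of all genes rose. The part of these cells in the collagen slopes was not tested.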

How the data were processed

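RNA of 72 adipose samples, each from a piece of tissue of 1 mouse, was hybridised to Illumina MouseRef-8 v2.0 arrays. The bead intensity of each of 25697 probes was deposited as exported by the authors from BeadStudio, without normalization, together with a detection p-value per probe and array that the same software had computed from negative control probes, as deposited. The log2 values of the authors' own normalized table were used only as an alternative. Median raw intensity was 94.7 to 160.6 per array and 44.8 to 54.8% of probes were detected. The number of arrays limits the precision.

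Intensities were background-corrected, quantile-normalized and put on a log2 scale with neqc (limma 3.58.1, R 4.3.3, statmod 1.5.0), and figures were drawn with matplotlib 3.10.9. Probes detected (p under 0.05) on 3 or more arrays were kept (18083 probes, 12265 genes). Genes were named from the platform annotation, in which 23978 probes have 1 symbol and 1719 have none, with current symbols and positions from RefSeq (GRCm38.p6). The tested probe with the highest mean represented a gene, and levels of different probes were not compared. A chain not detected on any array of a group has only a bound there, given as at least N-fold from the lowest detected signal of each array.

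The 17 labelled groups entered 1 limma fit (lmFit and eBayes), adjusted by Benjamini-Hochberg over all tested probes within each comparison. A gene was called at an adjusted p under 0.01 with a log2 fold change beyond 1.5. The p threshold is that of the study's methods, which state no fold minimum. Slopes came from the 56 BAT arrays with the labelled group and 1 marker in the fit, and were called at an adjusted p under 0.01. Both fits were also run on simulated data, with independent noise per probe and the same spread in every group. Real groups differ in spread, so that run checks the code and does not show that the calls hold in these arrays. By the sample names, 8 mice gave both BAT and WAT. A further 5 pairs of names (4 of ATGLAKO and 1 of control mice) differ only by a leading A, and the labels do not settle whether these are the same mice. No 2 arrays held identical values.

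The members, gene lists and tests were chosen with earlier results of these data known. Values are given for chains called in a comparison, for the highest and lowest chain of each class in DAKO against control BAT at 3 months, for Col1a1, Col3a1, Col4a1, Col6a1, Col15a1 and Col18a1 as examples, and for called genes of the pathway lists. Col4a2, Col4a3, Col4a4, Col24a1, Col27a1 and also Col1a2, Col5a2, Col5a3, Col6a2 and Col9a1 were added after their values had been seen. Replicate numbers did not tie DAKO to control BAT samples of the same age, whereas mouse names tie some BAT and WAT samples. Alternatives covered background correction, scaling, the probe filter, the probe of a gene, the groups in the fit, array weights, call thresholds, blocks, and leaving out arrays.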

Additional observations from a re-analysis of the deposited data

Results flagged for a closer look

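Single arrays stood apart from the rest of their labelled group for 14 of 192 sets of 4 or 5 arrays tested, where chance alone would give 9.6 (about 1 in 20). Several came from the same arrays. Control BAT replicate 4 at 12 months was high for Col5a1 (11.96, the others 10.24 to 10.38), Col6a1 (12.72, the others 11.68 to 11.84) and Col4a6 (5.56, the others 5.09 to 5.14). ATGLAKO BAT replicate 4 at 12 months was high for Col4a5 (6.81, the others 4.35 to 4.40) and Col4a6 (5.41, the others 4.30 to 4.38), and it was the 1 array of its group with mesothelial signal. DAKO BAT replicate 3 at 3 months was high for the same X-linked type IV chains, Col4a5 (6.05, the others 4.38 to 4.56) and Col4a6 (4.92, the others 4.21 to 4.30), and its mean over 9 mesothelial markers was 4.92, against 4.37 to 4.43 on the other 4 DAKO arrays, which was not tested. ATGLAKO WAT replicate 5, the array of its group without mesothelial signal, was low for Col4a5 (4.27, the others 6.61 to 6.87) and high for Col2a1 (5.08, the others 4.41 to 4.57). Col7a1 was high on DAKO BAT replicate 1 at 12 months (11.60, the others 5.24 to 5.40), which had high Cdkn2a, and on DAKO BAT replicate 4 at 14 months (6.79, the others 5.27 to 5.43), which did not. Col3a1 was high on control BAT replicate 4 at 3 months (6.81, the others 5.79 to 6.04) and on control BAT replicate 4 at 7 months (9.38, the others 8.28 to 8.41), and Col4a1 was high on HSLAKO WAT replicate 1 (12.28, the others 11.35 to 11.43).

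The effect of a genotype differed between ages by a test of the difference for 9 values. The DAKO effect at 7 months minus that at 3 months was -5.23 ± 0.95 for Col15a1 (SE, limma adjusted p = 0.000894). The HSLAKO effect at 7 months minus that at 3 months was -3.45 ± 0.85 for Col3a1 (adjusted p = 0.00535), -3.54 ± 0.89 for Col5a1 (adjusted p = 0.00614), -2.44 ± 0.57 for Col5a3 (adjusted p = 0.00349), -4.04 ± 0.92 for Col6a1 (adjusted p = 0.00279), -3.87 ± 0.82 for Col6a2 (adjusted p = 0.00141) and -4.40 ± 0.98 for Col15a1 (adjusted p = 0.00216). The HSLAKO effect at 12 months minus that at 3 months was -2.29 ± 0.57 for Col5a3 (adjusted p = 0.00965) and -4.31 ± 0.98 for Col15a1 (adjusted p = 0.0049).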

How the results depend on the processing

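Group comparisons. Of the values that answer a comparison, 607 stayed within 1.5 times the main count or within the spread between arrays and 81 moved, and of the values of named chains 478 kept direction and call, 105 lost it, 11 gained it and 33 changed sign. The cause of the moves was not tested. The share of all genes called was not counted with array weights or with arrays scaled to a common median. A count given here without that share does not tell collagens from other genes. With no fold minimum at an adjusted p under 0.01, DAKO and HSLAKO BAT at 12 months had 3 called chains each. At an adjusted p under 0.05 with no fold minimum the counts were 3 (DAKO), 11 (HSLAKO) at 3 months, 5 and 2 at 7 months, 4 and 7 at 12 months, 1 for ATGLAKO at 12 months and 4 for ATGLAKO WAT against BAT. With array weights 4, 9, 3, 1, 2 and 2 chains were called in DAKO and HSLAKO BAT at 3, 7 and 12 months, 9 in ATGLAKO BAT at 12 months, 4 for the interaction at 12 months, 2 for DAKO at 14 against 12 months, 2 for ATGLAKO against control WAT, 7 for ATGLAKO WAT against BAT and 4 for control WAT against BAT. When a fit held just the 2 groups compared, the counts were 6 for DAKO (2.94% of all genes called) and 9 for HSLAKO (4.9%) at 3 months. They were 1 for HSLAKO at 7 months (0.31%) and 0 for DAKO at 12 months (1.05%). With arrays scaled to a common median in place of quantiles, 2 chains were called in DAKO BAT at 7 months, 9 in HSLAKO BAT at 7 months, 2 in DAKO BAT at 12 months and 4 for ATGLAKO WAT against BAT, and the medians were -0.68 for HSLAKO at 7 months and 1.12 for the interaction at 7 months. That scaling also moved the median of all genes, to -0.56 in HSLAKO and -0.24 in DAKO BAT at 7 months, -0.29 in ATGLAKO BAT at 7 months, -0.24 in DAKO and -0.23 in ATGLAKO BAT at 12 months, 0.11 in HSLAKO BAT at 3 months, 0.42 for ATGLAKO WAT against BAT, 0.26 for ATGLAKO against control WAT and 0.50 for the interaction at 7 months. On the authors' normalized values 0 chains were called in HSLAKO BAT at 3 months and 0 in DAKO BAT at 12 months, with medians of -0.10 for ATGLAKO at 12 months and -0.092 and 0.10 for the interaction at 3 and 12 months. Without background correction 1 chain was called in HSLAKO BAT at 3 months and 0 in DAKO BAT at 12 months, and with a neqc offset of 50 the count in DAKO BAT at 12 months was 0 too. With the lowest-mean probe 1 chain was called in HSLAKO BAT at 3 months, and in DAKO BAT at 3 months Col18a1 was -0.020, Col4a6 0.038 and Col7a1 0.032. Over the 18 chains detected on 36 or more arrays 0 were called in DAKO BAT at 12 months, since Col4a5 is not among them, and the medians were 1.17 (DAKO), 1.68 (HSLAKO) and 0.69 (ATGLAKO) at 3 months, -0.84 (HSLAKO) and -1.10 (ATGLAKO) at 7 months, -1.06 (ATGLAKO) at 12 months, -1.22, 0.95 and 1.19 for the interaction at 3, 7 and 12 months, 0.77 for ATGLAKO and 0.97 for control WAT against BAT.

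Arrays left out or exchanged. Against control BAT of 3 months, chosen after seeing the data, 5 and 7 chains were called in DAKO and 1 and 7 in HSLAKO BAT at 7 and 12 months, the medians were 0.60, 0.23 and 0.46 in DAKO, HSLAKO and ATGLAKO at 7 months and 0.49, 0.75 and 0.23 at 12 months, and Col15a1 in DAKO at 7 months was 0.57 and the fitted value of Col4a5 in DAKO at 12 months was 0.36, which is no fold, since Col4a5 was not detected on those control arrays. Without the 5 arrays with high Cdkn2a 0 chains were called in DAKO BAT at 7 months (median -0.66). Without the arrays with mesothelial signal 5 chains were called in HSLAKO BAT at 3 months (share of all genes not counted). Neither group of that comparison lost an array, so only the spread shared over the groups changed. The median of ATGLAKO WAT against BAT was then -0.31, which rests on 1 WAT array, replicate 5. Leaving out 1 array at a time gave 0 to 2 called chains for HSLAKO at 3 months, 0 to 3 for DAKO at 7 months, 0 to 1 for DAKO and for HSLAKO at 12 months (without HSLAKO replicate 3 or 4), 0 to 2 for ATGLAKO at 12 months (2 without replicate 4) and for ATGLAKO WAT against BAT (2 without WAT replicate 5), and 0 for the others. Col3a1 in HSLAKO BAT at 3 months ranged between 2.15 and 2.79, Col5a1 between 2.40 and 2.80, Col15a1 in DAKO BAT at 7 months between -3.83 and -3.49, Col4a5 in DAKO BAT at 12 months between -2.24 and -1.78, and Col4a6 in DAKO BAT at 3 months between -0.18 and 0.037. The replicate numbers of the labels did not tie DAKO to control BAT samples (mean correlation of same-numbered samples -0.04, 0.12 and 0.03 at 3, 7 and 12 months). With the replicate block 2 chains were called in HSLAKO BAT at 3 months, 1 in DAKO BAT at 7 and 1 at 12 months and 0 elsewhere, as without it, and the mouse as a random block gave the same counts, also with the names that differ by a leading A taken as 1 mouse, an alternative added after the data had been seen.

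Slopes. Among BAT arrays with high Ucp1 alone 8 chains fell along Lipe (5.07% of all genes fell), 1 along Ucp1 (2.34%), and 0 rose along Lipe, Ucp1 or Cdkn2a. There Cdkn2a spanned 4.18 to 4.57 and 0% of genes had a called slope along it, so the signs of these slopes carry no order. They were -0.26 for Col16a1, -0.055 for Col18a1, -0.58 for Col1a1, -0.41 for Col1a2, -2.12 for Col23a1, -0.091 for Col24a1, -0.12 for Col3a1, -1.18 for Col4a5, -0.26 for Col5a1, -0.50 for Col6a1 and -1.58 for Col7a1, and those along Ucp1 were 0.17 for Col4a5 and 0.0072 for Col7a1. Among arrays with low Ucp1 alone 0 chains fell and 0 rose along Lipe or Ucp1 and 2 of 32 rose along Cdkn2a, near the 6.28% of all genes that rose. There the slopes along Lipe were 0.043 for Col14a1, 1.02 for Col15a1, -0.36 for Col27a1, 0.18 for Col4a1, 0.52 for Col4a2, 0.76 for Col5a3, 0.0086 for Col6a1 and 0.26 for Col6a2, and those along Ucp1 were 0.075 for Col14a1, 0.15 for Col15a1, -0.26 for Col27a1, 0.013 for Col4a1, 0.0091 for Col4a2 and 0.033 for Col5a3. Along Cdkn2a 4 chains rose and 1 fell with Ucp1 in the fit, where Col6a1 was at -0.032. The counts were the same on the 51 arrays with low Cdkn2a, but most of the chains were not. With Ucp1 in the fit Col7a1, Col16a1, Col24a1 and Col27a1 rose and Col15a1 fell. On the 51 arrays Col1a1, Col5a2, Col14a1 and Col16a1 rose and Col27a1 fell. Where a chain was not detected on any array of a group, the signal over background limits its difference to a bound.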
